A study of Mus musculus with 4 samples.

Results

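The response of control macrophages to iron was read from 2 arrays of mouse RAW264 cells, a macrophage-like line of BALB/c origin. Both cultures had received small interfering RNA against green fluorescent protein (siGFP), a transcript mouse cells lack, and 48 hours later were kept for a further 24 hours without addition or with 500 µM ferric chloride (FeCl3). Another pair of arrays, of cells given siRNA against Tfe3 and Tfeb and kept without or with the same iron, shares no array with the siGFP pair and is set beside it where stated. Each of the 4 groups held 1 array, so no difference below has a replicate check, and sizes are described without a test. Of 24934 named genes on the arrays, 15153 were taken as members of the comparison because their brightest probe was well above background on the brighter of the siGFP arrays. Of these, 14304 were measured on both arrays and 849 on 1 of them only, which gives a bound, written as at least N-fold. The other 9781 genes were below background on both.

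Macrophages take up iron bound to transferrin and from the haem of engulfed red cells, store it in ferritin and return it to plasma through ferroportin. Free ferrous iron reacts with peroxide to form radicals, and cells meet this with ferritin, glutathione and thioredoxin enzymes, many of whose genes the transcription factor Nrf2 drives. In low iron, the iron regulatory proteins hold back translation of ferritin and ferroportin transcripts and stabilise the transcript of the transferrin receptor. TFE3 and TFEB, of the MiT/TFE family, drive lysosomal genes.

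The arrays carried 59305 non-control spots, and none was saturated. The 75th percentile of processed signal, to which each array was scaled, was 619 without and 627 with iron, and 14755 and 14703 genes were well above background. All values below are log2 differences, iron minus untreated, after this scaling, and signals are processed fluorescence before it. Repeated spots of 1 probe give the only error: the SD of a log2 difference was 0.067 for bright genes (a scaled log2 level above 2), 0.1 between -2 and 2, and 0.25 below -2. These SDs come from 546, 12 and 25 pairings of a repeated probe with an array, so the 2 for dimmer genes are less certain. This spot SD leaves out culture, extraction and labelling. In RNA from a whole culture, a change in the share of cells in some state and a change in RNA per cell cannot be told apart.

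All 20 macrophage markers were well above background on both arrays, with a summed signal of 780914 without and 787088 with iron. Of 8 fibroblast markers, 2 were well above background on each array (Col1a1, Col3a1, Dcn, Lum, Pdgfra and Thy1 were not), of 8 epithelial markers 3 and 2 (Epcam and Cdh1 were not), of 8 endothelial markers 3 and 4 (Cdh5, Tek, Tie1 and Cldn5 were not), and of 10 lymphocyte markers 7 and 6 (Cd3g and Ncr1 were not). The summed signals of these lists were 297 and 199, 155 and 128, 403 and 584, and 2444 and 2217. Most of the endothelial difference was Vwf (von Willebrand factor), at 81.9 and 227. The part of such markers in the results was not tested. Tfe3 itself read 12421 and 11306 on the siGFP arrays and 7736 and 7315 on the siTfe3/Tfeb arrays. The brightest Tfeb probe read 341 and 319 against 319 and 338, slightly less without iron and slightly more with it.

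Iron went with a one-sided spread of differences. Of the 15153 genes, 235 (1.55%) read higher by 2-fold or more, 34 of them as bounds. Lower by that much were 53 genes (0.350%), 15 of them as bounds. With normexp background correction, which pulls in the differences of dim genes, the counts were 125 and 20. Of the genes named below, it took Myc and Src to 0.42, Il1r2 to 0.59, Gsta3 to 0.64, F3 to 0.68 and Lifr to -0.43. It also took Aif1, Cat, Cd200r1, Cd36, Fosl1, Lrrc3, Ptafr, Ptgs2, Serpinb6b, Slc7a11, Vwf and the agouti gene a below 2-fold, all but the last by a smaller step. Among the 14304 genes measured on both arrays the median was -0.020, 46.0% lay above 0, 93.9% differed by less than 1.5-fold, and the 1st and 99th percentiles were -0.71 and 1.13. The list counts below are to be read beside these shares, 46.0% above 0 and 1.55% at least 2-fold higher. At least 4-fold higher were 33 genes, at least 8-fold higher 4, and 1 gene, Fpr2, was at least 4-fold lower. Of the 2-fold genes 26 higher and 11 lower carried only an identifier and are not named. The threshold cuts through a continuous range: 47 genes lay within 0.1 inside it and 52 within 0.1 outside it on the higher side, and 14 and 24 on the lower side. Just inside stood Cat (1.017), Plpp1 and Tbxas1 (both 1.011) and, lower, Prmt8 (-1.009), Gbp6 (-1.004) and Sirpb1b (-1.003). Just outside stood Serpinb9 (0.997), Stfa2l1 (0.998) and, lower, Nat8f3 (-0.999), Fndc7 (-0.994) and Cldn24 (-0.985).

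**Figure D1:**
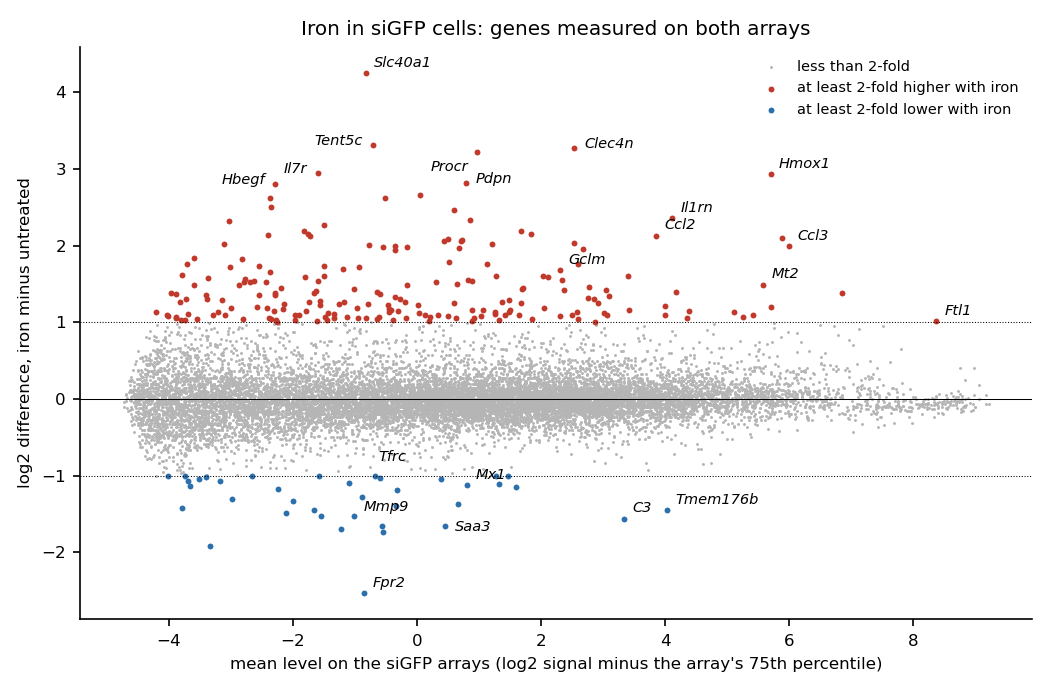
Each point is a gene measured on both siGFP arrays (14304 genes), with its mean scaled log2 level on the x axis and its log2 difference, iron minus untreated, on the y axis. Red points are the 201 genes at least 2-fold higher and blue points the 38 at least 2-fold lower. Slc40a1 stands highest at 4.25 and Fpr2 lowest at -2.53.

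Other probes of the same genes gave a check within the same arrays. Of the 201 higher genes measured on both arrays, 51 had another probe well above background on both, and in 48 every such probe also lay above 0, while 33 had another probe that was itself 2-fold higher. Among 38 lower genes, 10 had another probe, 9 had all of them below 0 and 5 had a 2-fold lower one. The exceptions were Ndst1 (2.32, other probe -0.23), Entpd7 (1.03, other probe -0.14), the agouti gene a (2.02, other probes -0.11 to 0.34) and Iigp1 (-1.39, other probe 0.45), whose differences therefore hold for 1 probe. Averaged over all probes, Igf1 (0.71), Itgax and Rgs2 (both 0.84), Sqstm1 (0.86), Slc7a11 (0.93), Fnip2 (0.97), Lifr (-0.78), Dmwd (-0.90) and Zmynd15 (-0.95) also fell short of 2-fold, with Cd200r1 at the threshold. Probes can report different transcript forms, and which of them differs was not analysed here.

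**Figure D2:**
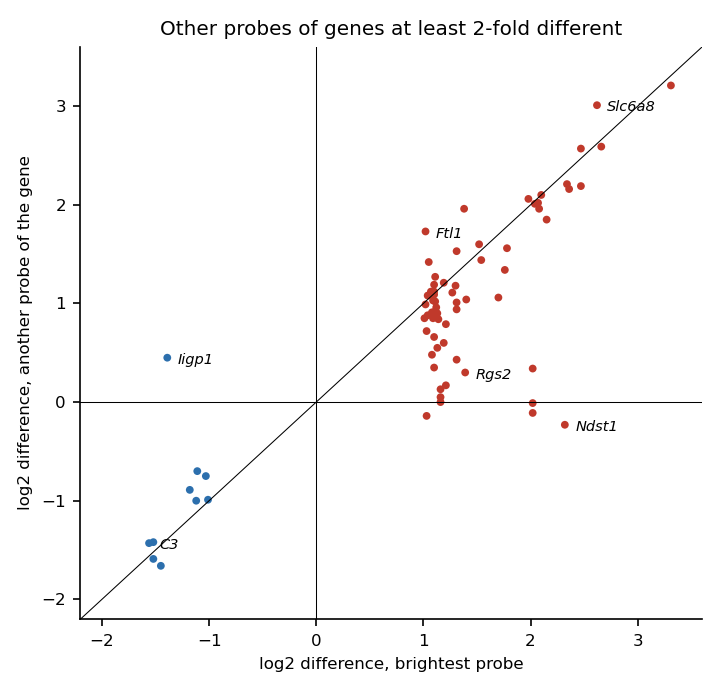
Each point is another probe of a gene at least 2-fold different with iron in siGFP cells, with the log2 difference of the gene's brightest probe on the x axis and of the other probe on the y axis. Red points are higher genes, blue points lower genes, and the diagonal marks equal differences. Most points lie near the diagonal, and Iigp1 and Ndst1 have other probes of the opposite sign.

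Among genes of iron transport the exporter stood apart. Slc40a1 (ferroportin, the only known cellular iron exporter; probe on mm9 chromosome 1, 45965255 to 45965314) read 80.2 without and 1546 with iron, a difference of 4.25 or 19.0-fold with a spot SD of 0.25. No other gene measured on both arrays differed as much. Of its partners, Cp (ceruloplasmin, a ferroxidase) read 5896 and 3746 (-0.67), and its 4 other probes stood between -0.89 and -0.62. The haem exporter Flvcr1 stood at 0.24 and Abcg2 at 0.39. Heph, Hamp and Hamp2 were below background on both arrays.

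On the uptake side the differences went both ways. Tfrc (transferrin receptor; mm9 chromosome 16, 32620470 to 32620529) read 500 without and 274 with iron (-0.89), and its other probe 342 and 110 (-1.65). Averaged over both probes the difference was -1.27, so Tfrc passes 2-fold or misses it with the choice of probe. Slc11a1 (NRAMP1, which moves metal out of the phagosome) read 1960 and 5322 (1.42, 2.68-fold). Its relative Slc11a2 (DMT1) read 1246 and 1186 (-0.09), the ferrireductase Steap3 171 and 235 (0.44), and the zinc and iron carrier Slc39a14 stood at -0.03. The mitochondrial iron importers Slc25a37 and Slc25a28 were at -0.21 and -0.17. Of the 8 measured uptake genes 3 lay above 0, with a median of -0.06, so Tfrc and Slc11a1 were the ones that differed by more than 1.5-fold.

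Ferritin transcripts were higher. Ftl1 (ferritin light chain; mm9 chromosome 7, 52713318 to 52713377) read 143795 without and 295297 with iron (1.02, 2.03-fold; 0.97 with quantile normalization), and its other probe gave 1.73. Fth1 (the heavy chain, which oxidises iron) read 231876 and 311523 (0.41), and Ncoa4 (the receptor that takes ferritin to lysosomes) 3160 and 4219 (0.40). The iron chaperones Pcbp1 and Pcbp2 stood at 0.08 and -0.22. Genes of iron sensing differed little: Aco1 (iron regulatory protein 1) at 0.14, Ireb2 (iron regulatory protein 2) at -0.08 and Fbxl5 (which marks the latter for degradation) at -0.03. Hif1a stood at 0.42, Epas1 at 0.25 and Hfe at -0.34. No sensing gene reached 2-fold.

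**Figure D3:**
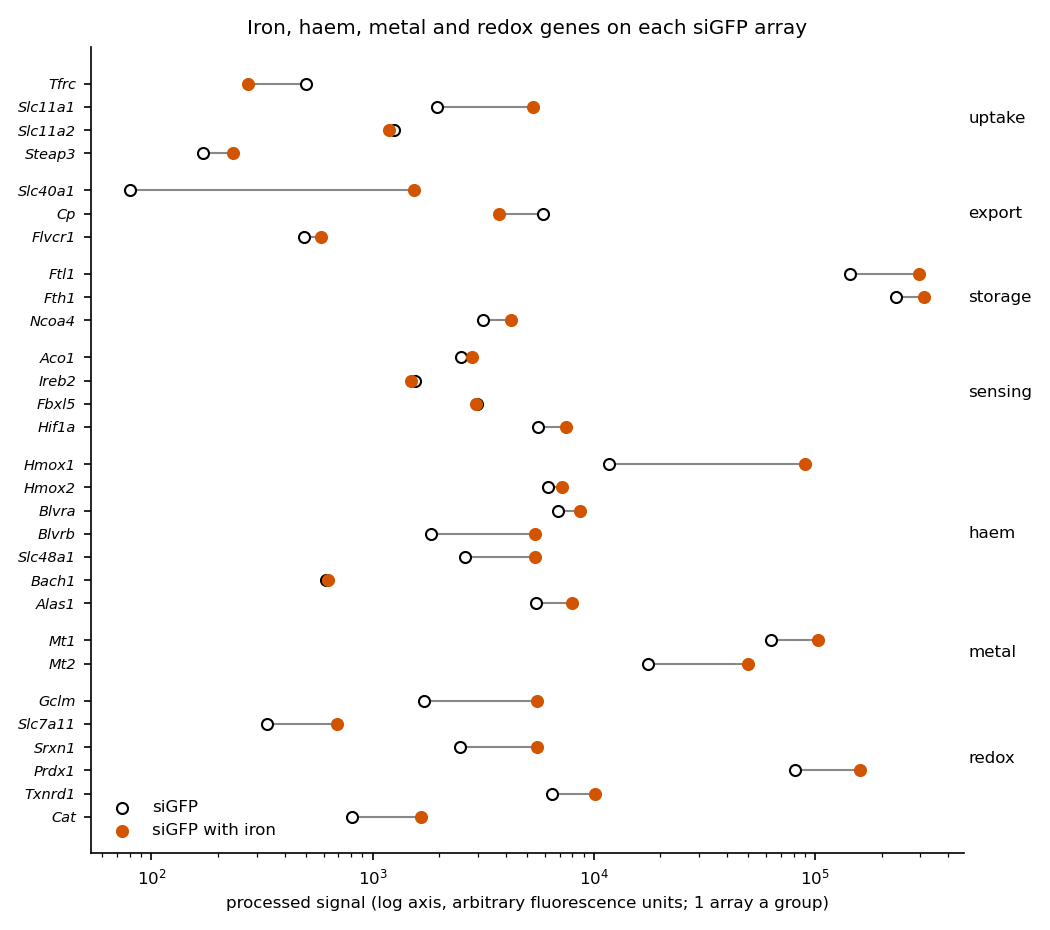
Processed signal of 29 genes on the siGFP array without iron (open circles) and with iron (filled circles) on a log axis, grouped by role, with 1 array a group. The longest lines are those of Slc40a1 (80.2 to 1546) and Hmox1 (11668 to 89784), and Tfrc and Cp run the other way. Signals of different genes are not comparable, since probes differ in brightness.

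Among genes of haem breakdown and transport, Hmox1, Blvrb and Slc48a1 were at least 2-fold higher. Hmox1 (haem oxygenase 1, which opens the haem ring; mm9 chromosome 8, 77624406 to 77624466) read 11668 without and 89784 with iron, a difference of 2.93 or 7.60-fold with a spot SD of 0.067. Blvrb (biliverdin reductase B) read 1834 and 5432 (1.55) and Slc48a1 (HRG1, which carries haem out of the phagolysosome) 2606 and 5409 (1.04). The constitutive oxygenase Hmox2 stood at 0.20, Blvra at 0.32 and Bach1, a haem-binding repressor of Hmox1, at 0.00. Of 10 measured genes of haem breakdown and transport 9 lay above 0, with a median of 0.32. All 8 haem synthesis genes were measured, with a median of 0.07. Alas1, the first enzyme of the path, was the highest at 0.51 and the other 7 stood between -0.07 and 0.18. Iron-sulfur cluster assembly was level: 10 of 20 genes lay above 0, the median was -0.01 and the range -0.35 (Mms19) to 0.16 (Ciao2b).

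Genes of glutathione synthesis and transfer were mostly higher, and those of peroxide defence in part. Of 11 measured genes of glutathione synthesis and cystine uptake 9 lay above 0, with a median of 0.32 and 2 at 2-fold. Gclm, the modifier subunit of the enzyme that limits glutathione synthesis, read 1709 without and 5553 with iron (1.68, 3.21-fold). Slc7a11, the cystine importer, read 333 and 687 (1.03). Gclc, the catalytic partner of Gclm, which the naming rule did not pick and which was chosen after its value was seen, stood at 0.32. Of 16 measured glutathione S-transferases, which attach glutathione to electrophiles, 15 lay above 0 (median 0.28): Gstm1 read 427 and 1826 (2.08), Gstm3 500 and 1987 (1.97) and Gsta3 30.8 and 87.2 (1.48), while Gsta2 was below background without iron and at least 8.08-fold higher. These transferases have close sequence relatives, and whether a probe also reads a relative was not tested. In the thioredoxin system Srxn1 (sulfiredoxin) stood at 1.14, Cat (catalase) at 1.02, Prdx1 (peroxiredoxin 1) at 0.95 and Txnrd1 (thioredoxin reductase 1) at 0.62, against Sesn1 at -0.40. Of the 20 members 13 lay above 0 and 7 below, with a median of 0.09 (0.05 with quantile normalization and 0.04 with the mean of probes), so the differences lay in a few of them.

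Nrf2, its regulators and NADPH-making enzymes lay above 0 in 15 of 17 cases (median 0.31) with none at 2-fold. Maff, a small Maf partner of Nrf2, stood at 0.88, the carbonyl reductase Cbr3 at 0.57, and the NADPH makers G6pdx, Me1 and Pgd at 0.47, 0.43 and 0.40. Genes that guard against or drive ferroptosis, an iron-dependent death by lipid peroxides, were mixed, with 10 of 16 above 0 and a median of 0.06. Apart from Slc7a11 they ran from Gch1, which makes the antioxidant tetrahydrobiopterin, at 0.53 to Cybb, the phagocyte oxidase subunit, at -0.43. Metallothioneins, which bind zinc and copper, were higher: Mt2 read 17644 and 50053 (1.49, 2.80-fold) and Mt1 63179 and 103684 (0.70), while Mt3 stood at 0.14 and the zinc exporter Slc30a1 at 0.24.

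The promoters of these genes were searched for the sites of the factors that are known to drive them, as a description of sequence only. The window was 250 bases before to 50 bases after each start site in RefSeq GRCm38.p6, read on both strands, and of the 14304 measured genes 11360 had a promoter in the table. The antioxidant response element core (TGACNNNGC), to which Nrf2 and small Maf bind, was present in 8 of 17 genes of the Nrf2 and NADPH list, against 16.1% of measured genes. It was present in 5 of 19 thioredoxin genes, 2 of 14 transferases and 27 of 139 genes at least 2-fold higher (19.4%). Hmox1 and Slc40a1 had no promoter to search. The promoters of Ftl1, Blvrb and Slc7a11 held no match to this core, and the windows printed below were taken from promoters with a match. The metal response element core (TGCACNC) was present in 4 of 9 genes of the metallothionein list (Mt1, Mt2, Mt3 and Slc30a1) against 14.8%. Below are windows of Gclm, Prdx1, Mt2 and Mt1, all higher with iron, printed 5′ to 3′ on the gene's strand with the match on either strand in capitals. They show how near the start site such cores lie: 134 and 133 bases before it in Gclm and Prdx1, 223 and 50 in Mt2, and 23 in Mt1. Mt1 holds another core just past the start site, outside the printed window.
Gclm (chr3:122245368-122245486, plus strand): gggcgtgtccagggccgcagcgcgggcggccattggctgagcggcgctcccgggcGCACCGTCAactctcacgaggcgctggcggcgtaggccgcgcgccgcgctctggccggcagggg
Prdx1 (chr4:116685411-116685529, plus strand): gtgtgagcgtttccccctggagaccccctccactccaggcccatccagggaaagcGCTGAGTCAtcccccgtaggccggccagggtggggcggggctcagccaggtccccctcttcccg
Mt2 (chr8:94172368-94172617, plus strand): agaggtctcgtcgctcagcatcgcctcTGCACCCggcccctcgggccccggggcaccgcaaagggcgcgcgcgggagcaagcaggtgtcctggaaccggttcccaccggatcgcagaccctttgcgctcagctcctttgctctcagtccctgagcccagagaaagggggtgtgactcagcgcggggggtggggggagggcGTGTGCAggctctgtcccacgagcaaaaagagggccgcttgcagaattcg
Mt1 (chr8:94179011-94179088, plus strand): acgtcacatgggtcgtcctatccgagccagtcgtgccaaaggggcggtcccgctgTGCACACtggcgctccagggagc

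Subunits of the vacuolar ATPase, the proton pump that acidifies lysosomes, were higher as a group, with 18 of 20 above 0 and a median of 0.47. Atp6v0d2, a subunit of osteoclasts and some macrophages, read 495 without and 2544 with iron (2.34, 5.07-fold), and its other probe gave 2.21. The widely expressed subunits Atp6v0a1 (3573 and 6663), Atp6v1a (8286 and 15015) and Atp6v0c (24016 and 40003) stood at 0.88, 0.84 and 0.72, and Atp6v1d and Atp6v1c1 both at 0.60. Lysosomal hydrolases and membrane proteins lay above 0 in 32 of 40 cases (median 0.22), with the membrane protein Cd63 at 0.86. Among cathepsins, the lysosomal proteases, Ctsd read 40038 and 79589 (0.97), Ctsl 28660 and 53557 (0.88) and Ctsb 110294 and 175548 (0.65), whereas Ctsf read 933 and 494 (-0.93). In all, 8 of 12 measured cathepsins lay above 0, with a median of 0.19 (0.11 with the mean of probes).

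Autophagy genes did not share this direction: 12 of 29 lay above 0 and the median was -0.03. The receptor Sqstm1 (p62), also an Nrf2 target, read 14457 and 31958 (1.13) and Map1lc3b (LC3B) 14324 and 22846 (0.66). Of MiT/TFE targets not in the lysosomal list, Gpnmb read 3118 and 8463 (1.42) and Fnip2, a partner of folliculin, 1138 and 2447 (1.09). The GTPase Rragc (0.50) and Fnip1 (0.47) followed. The factors themselves differed by less than 1.5-fold, Tfe3 at -0.15, Tfeb at -0.12, Mitf at 0.09 and Tfec at 0.46. The E-box of the CLEAR element (TCACGTGA), which MiT/TFE factors bind, was present in 3 of 14 pump promoters and 4 of 34 of the lysosomal list, against 1.96% of measured genes and 4 of 139 genes at least 2-fold higher. The promoter of Sqstm1 held no such E-box. The windows of Atp6v1a and Ctsd show the E-box 132 and 99 bases before the start site.
Atp6v1a (chr16:44139329-44139446, minus strand): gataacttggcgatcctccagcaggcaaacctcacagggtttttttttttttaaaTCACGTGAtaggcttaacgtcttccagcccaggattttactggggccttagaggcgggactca
Ctsd (chr7:142387864-142387981, minus strand): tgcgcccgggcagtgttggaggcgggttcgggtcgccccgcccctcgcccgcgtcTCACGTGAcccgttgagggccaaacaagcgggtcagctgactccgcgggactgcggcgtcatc

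Lipid genes split by function. Sterol synthesis and uptake genes lay above 0 in 22 of 24 cases with a median of 0.43 and none at 2-fold: Insig1, which retains the sterol sensor in the endoplasmic reticulum, read 223 and 428 (0.92) and Hsd17b7 1726 and 2943 (0.75). Fatty acid synthesis was nearer to 0 (8 of 13 above it, median 0.11). Of 20 measured genes of sterol efflux, lipid uptake and storage 12 lay above 0, with a median of 0.26 and 2 at 2-fold. The highest were Fabp4 (a fatty acid chaperone) at 256 and 1638 (2.66, 6.32-fold), the scavenger receptor Cd36 at 178 and 432 (1.26), Fabp5 at 0.95, Hilpda at 0.80 and the lipid droplet coat Plin3 at 0.72, while the triglyceride enzyme Dgat1 stood at -0.25, the lipase Pnpla2 at -0.16 and the regulator Pparg at -0.21. The liver X receptor targets Abca1 (-0.54), Apoe (-0.48), Mylip (-0.35) and Abcg1 (-0.34), chosen after their values were seen, stood below 0. Dgat1, Pnpla2 and Pparg were likewise chosen after their values were seen. The sterol response element TCACCCCAC was present in 1 of 17 sterol gene promoters, that of Hmgcs1 (0.47), against 0.704% of measured genes.
Hmgcs1 (chr13:119690159-119690277, plus strand): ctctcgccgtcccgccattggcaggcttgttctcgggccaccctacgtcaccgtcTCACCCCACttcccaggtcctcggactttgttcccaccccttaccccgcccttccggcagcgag

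Secreted signals were among the largest differences. Of 11 measured CC chemokines, which draw monocytes and other leukocytes, 9 lay above 0, with a median of 0.93 and 5 at 2-fold. With no background filter, which adds genes below background on both arrays, the median was 0.30. Over all genes, 46.0% of those measured on both arrays lay above 0 and 1.55% of members were at least 2-fold higher. Ccl3 read 19791 without and 79817 with iron (1.99) and Ccl4 17644 and 76714 (2.10). Ccl2 read 4289 and 19052 (2.13), and its neighbour Ccl7 56.0 and 249 (2.14). Ccl24 (eotaxin 2) read 51.2 and 293 (2.50). The lowest members, Ccl25, Ccl1, Ccl12 and Ccl5, stood at 0.20, 0.16, -0.12 and -0.27. Of the CXC family, Ppbp was at least 9.70-fold higher, Pf4 stood at 0.98, Cxcl10 at -0.46 and Cxcl16 read 746 and 332 (-1.18). In that family 4 of 7 measured genes lay above 0, with a median of 0.34 (0.13 with normexp, 0.06 with no background filter).

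Of 17 measured cytokines and effectors 10 lay above 0, with a median of 0.31 (0.20 with normexp, 0.06 with no background filter, 0.14 with the mean of probes). Among them the receptor antagonist Il1rn read 4722 without and 24493 with iron (2.36, 5.12-fold), and its other probe gave 2.16. Csf1 (macrophage colony stimulating factor) read 179 and 595 (1.72), Osm (oncostatin M) 677 and 1988 (1.54), Ptgs2 (cyclooxygenase 2) 381 and 797 (1.05) and Csf2 183 and 349 (0.92). Il1b, chosen after its value was seen, stood at -0.43, and Ifnb1 read 106 and 60.4 (-0.83). Il1a, Il6, Il10 and Il12b were below background on both arrays. NF-kB subunits and feedback genes lay below 0 in 16 of 19 cases (median -0.29), with Bcl3 at -0.63, Relb at -0.60, Birc3 at -0.56 and Tnfaip3 (A20) at -0.39.

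Genes of matrix proteolysis were mostly higher, and growth factors and integrins went both ways. Of 15 measured growth factors 10 lay above 0, with a median of 0.18 (0.05 with no background filter) and Vegfc lowest at -0.61. Hbegf, a ligand of the epidermal growth factor receptor, read 48.3 and 341 (2.80, 6.98-fold) and Igf1 6770 and 14717 (1.10, other probes 0.35 and 0.66). Of 17 measured genes of matrix proteolysis and the plasminogen and clotting systems 15 lay above 0, with a median of 1.06 and 9 at 2-fold. Procr (the protein C receptor) read 396 and 3743 (3.22), Pdpn (podoplanin) 402 and 2863 (2.81), Mmp12 (macrophage elastase) 399 and 2233 (2.47), Plau (urokinase) 1769 and 7353 (2.04), its receptor Plaur 2031 and 6953 (1.76) and F3 (tissue factor) 25.9 and 88.8 (1.76). Mmp9 (gelatinase B) went the other way, 518 and 183 (-1.52, other probe -1.59). Of 16 measured integrin chains 9 lay above 0, with a median of 0.19. Itgb3 read 476 and 1661 (1.78) and Itgax (CD11c) 2108 and 4514 (1.08, other probe 0.48), against Itga4 at -0.42 and Itga1 at -0.40.

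Genes of osteoclasts, which form by fusion of macrophage precursors, were partly higher, 11 of 16 above 0 with a median of 0.54. The fusion genes Ocstamp (126 and 388, 1.61) and Dcstamp (2867 and 7135, 1.30), Itgb3, Atp6v0d2 and the kinase Src (1.04) reached 2-fold and Ctsk stood at 0.76. Mmp9, at -1.52, was the one member of this list at least 2-fold lower, and the receptor Tnfrsf11a (RANK) and the master regulator Nfatc1, chosen after their values were seen, stood at -0.17 and -0.14. Immediate early factors were mixed (15 of 23 above 0, median 0.17), with Atf3 at 1.27, Myc at 1.14, Fosl1 at 1.05, Jun at 0.64 and Fos at -0.78. Of the feedback genes of MAP kinase and G protein signals, Rgs1 read 709 and 2915 (2.02), Rgs2 6905 and 18257 (1.39, other probe 0.30), Rgs16 1106 and 2733 (1.29), and the phosphatases Dusp5 and Dusp4 stood at 1.26 and 1.11, against Dusp6 at -0.46. In that list 11 of 18 measured genes lay above 0 and 13 were within 0.5 of it. Its median was 0.14, or 0.07 with normexp or no background filter and 0.24 with the mean of probes. The AP-1 site (TGANTCA, its own reverse complement, which can lie inside longer Maf sites) was present in 24 of 139 promoters of genes at least 2-fold higher (17.3%) and 2 of 29 of genes at least 2-fold lower (6.90%), against 6.72% of measured genes. The window of Procr, the highest gene of the matrix and clotting list, shows it 154 bases before the start site.
Procr (chr2:155751008-155751124, plus strand): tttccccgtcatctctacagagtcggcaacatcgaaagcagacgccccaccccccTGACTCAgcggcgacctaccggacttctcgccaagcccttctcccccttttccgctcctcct

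Surface receptors differed in both directions. Clec4n (Dectin-2, which binds fungal mannans; mm9 chromosome 6, 123196969 to 123197028) read 1145 without and 11184 with iron (3.27, 9.65-fold), Treml4 243 and 980 (2.00), and the lectins Clec4d, Clec4e and Clec7a stood at 0.99, 0.80 and 0.72. Over the 21 measured C-type lectins and TREM receptors, 13 lay above 0 and 8 below, with a median of 0.11 (0.18 with no background filter). Clec4a1, chosen after its value was seen, was the lowest of them at -0.71. Il7r read 73.9 and 575 (2.94), Il1r2, a decoy receptor of interleukin 1, 37.8 and 94.0 (1.30), and Ptafr 168 and 403 (1.24). Fpr2 (formyl peptide receptor 2; mm9 chromosome 17, 18030798 to 18030857) read 822 and 144, at -2.53 or 5.79-fold lower with a spot SD of 0.25, and had no other probe to compare. Lifr was below background with iron and at least 2.18-fold lower. The CD200 receptor family members Cd200r1 and Cd200r4 stood at 1.08 and 1.24, against Ms4a4b at -1.52, Ms4a6b at -1.28, Tmem176a at -1.73 and Tmem176b (16670 and 6183) at -1.45. Toll-like receptors with Cd14 lay near 0, with a median of -0.12 (0.01 with no background filter, -0.02 with the mean of probes) and no member at 2-fold. Among the macrophage markers Aif1 read 2449 and 1228 (-1.01), against Mertk at 0.85 and Fcgr3 at 0.77.

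Antiviral genes and most acute phase genes stood lower. Of 40 type I interferon response genes, all measured, 39 lay below 0, with a median of -0.41. Mx1 (an antiviral GTPase; mm9 chromosome 16, 97668644 to 97668703) read 1600 without and 747 with iron (-1.12; its other probe read 310 and 157), Mx2 2406 and 1328 (-0.88) and Ifit1 941 and 565 (-0.75). Mx1 alone reached 2-fold in the list, so the group stood out by a small difference that nearly all its members shared. The interferon-inducible GTPases Iigp1 and Tgtp2, outside the list, stood at -1.39 and -1.15, Iigp1 with another probe of opposite sign. Of 11 measured acute phase, complement and lipocalin genes 8 lay below 0, with a median of -0.49 (-0.32 with normexp, -0.24 with no background filter), with Saa3 (serum amyloid A3) at 1506 and 482 (-1.66), Hp (haptoglobin, which binds free haemoglobin) at 749 and 241 (-1.65), C3 at 10705 and 3676 (-1.56) and Cfb at -0.66, against C3ar1 at 0.90.

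The interferon-stimulated response element core (GAAANNGAA) was present in 18 of 29 interferon list promoters (62.1%), 8 of 29 promoters of genes at least 2-fold lower (27.6%) and 7 of 139 of genes at least 2-fold higher (5.04%), against 8.87% of measured genes. The window of Ifit1 is shown because it holds 3 matches, between 109 and 84 bases before the start site, 2 of which overlap.
Ifit1 (chr19:34640725-34640868, plus strand): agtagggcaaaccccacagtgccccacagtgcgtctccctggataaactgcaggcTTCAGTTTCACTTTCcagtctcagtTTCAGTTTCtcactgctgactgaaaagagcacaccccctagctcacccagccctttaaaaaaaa

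**Figure D4:**
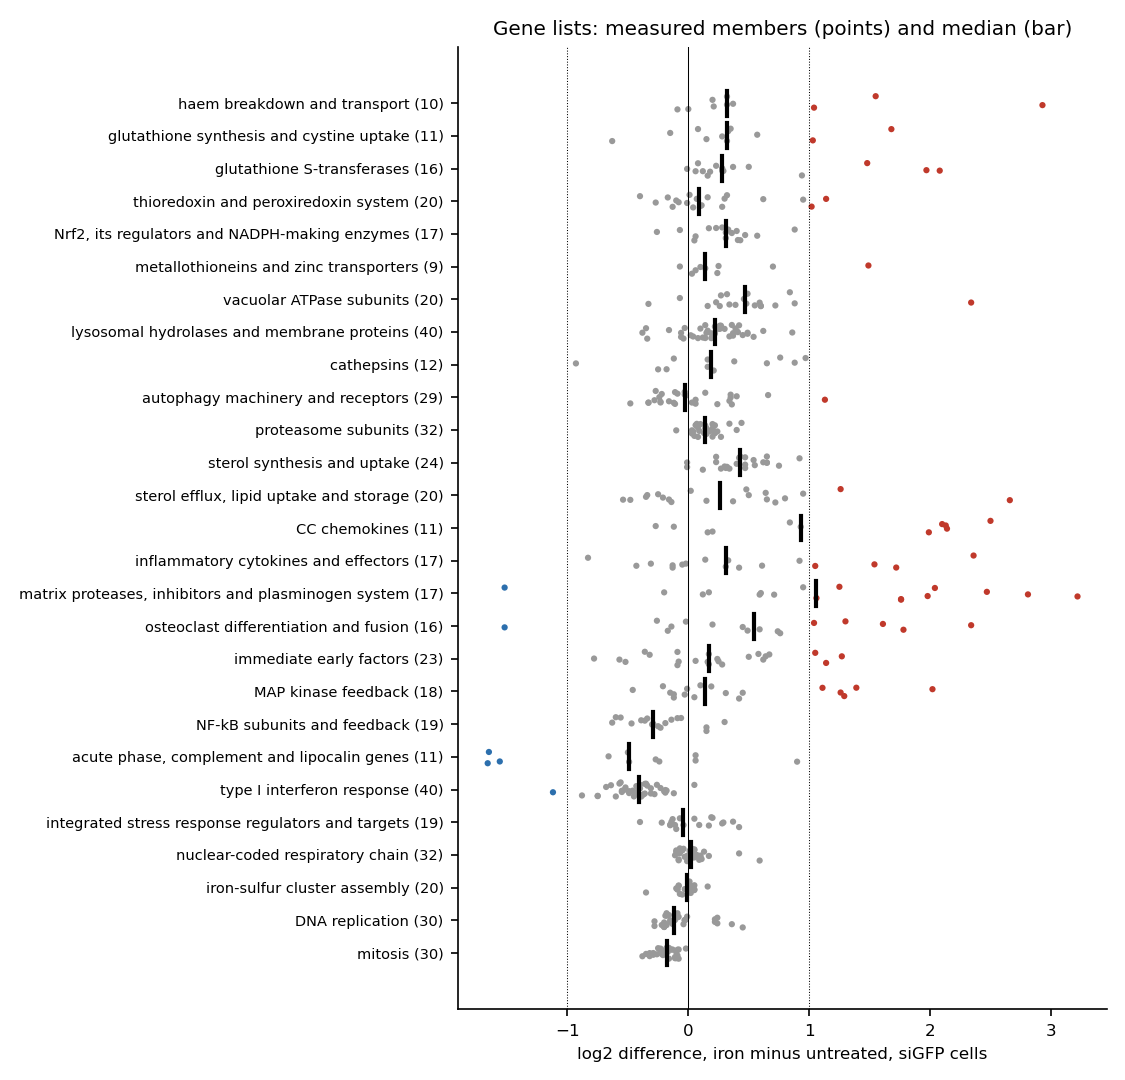
Points are the log2 differences, iron minus untreated, of the measured members of 27 gene lists in siGFP cells (number measured in brackets), and black bars are list medians. Red and blue points are at least 2-fold higher and lower and lie outside the dotted lines at -1 and 1. CC chemokines (median 0.93) and matrix proteases (1.06) lie far to the right with wide ranges, while the interferon list (-0.41) and mitosis (-0.18) are tight groups left of 0.

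Growth and stress lists lay close to 0. All 30 mitotic genes were measured and below 0, with a median of -0.18, a lowest value of -0.38 (Kif11) and Cdc20 at -0.32, where the median of all measured genes was -0.020. DNA replication genes lay below 0 in 24 of 30 cases (median -0.12), with Pcna at 0.36. Proteasome subunits lay above 0 in 31 of 32 cases with a median of 0.14 and a highest value of 0.44 (Psmb6). The nuclear-coded respiratory chain had a median of 0.02 (18 of 32 above 0) and the integrated stress response -0.04 (9 of 19). Cytosolic and mitochondrial heat shock genes had a median of -0.02 (7 of 17, Hspa1b at -0.81). Medians were -0.04 for p53 targets (9 of 19, with Plk2 at 2.15) and 0.09 for endoplasmic reticulum folding genes (15 of 22, Edem1 at 0.72). Glycolysis and hypoxia genes had a median of -0.06 with Hk3, a hexokinase of myeloid cells, at 1.09. Of arginine and polyamine genes, Arg2 read 102 and 310 (1.59) and Odc1, the first enzyme of polyamine synthesis, 63270 and 120248 (0.91). The creatine transporter Slc6a8 read 174 and 1086 (2.62), and its other probe gave 3.01.

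Several of the largest differences were in genes of none of these lists. Tent5c, a poly(A) polymerase, read 121 without and 1213 with iron (3.31, 9.91-fold), its other probe gave 3.21, and among genes measured on both arrays it stood next to Slc40a1 in size. Ptpn14, a tyrosine phosphatase, was below background without iron (10.3) and read 365 with it, at least 16.7-fold higher, the largest bound apart from genes that carry only an identifier. Pmp22, a membrane protein of myelin, read 1048 and 4707 (2.15), the RNA-binding protein Igf2bp2 500 and 2117 (2.07), Anpep (aminopeptidase N, CD13) 2001 and 7904 (1.96), the fatty acid chaperone Fabp3 213 and 849 (1.98) and the ubiquitin hydrolase Uchl1 180 and 734 (2.01). Bcar3, an adaptor of integrin signals, read 935 and 4313 (2.19). On the lower side Mchr1, a receptor of melanin-concentrating hormone, read 119 and 32.1 (-1.91) and Frat1, an inhibitor of glycogen synthase kinase, 324 and 120 (-1.45). In siTfe3/Tfeb cells all of these genes lay on the same side of 0, and those measured on both siGFP arrays ran from Igf2bp2 at 2.18, Anpep at 2.16 and Tent5c at 2.07 to Bcar3 and Pmp22, both at 1.31, and on the lower side Mchr1 at -1.22 and Frat1 at -0.94.

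Some of the differing genes were neighbours on the chromosome. In RefSeq order among genes measured on both arrays, 25 of 201 genes at least 2-fold higher (12.4%) stood next to another such gene, against 2.74% of all measured genes, and 9 of 38 lower genes (23.7%) against 0.510%. On chromosome 11 Ccl3, Ccl4, Wfdc17 (1.46) and Wfdc18 (1.04) formed a run of 4, and Ccl2 with Ccl7 another. Other higher runs were Serpinb1a (2.19), Serpinb1c (1.10) and Serpinb6b (1.06), Gstm3 and Gstm1, Rgs2 and Rgs1, Cd200r1 and Cd200r4, Lilr4b (1.45) and Lilrb4a (1.38), and Dcstamp and Dpys (1.03). Lower runs were Tmem176b and Tmem176a, Cxcl16 and Zmynd15 (-1.48), and Dmwd (-1.11), Dmpk (-1.37) and Six5 (-1.02). Many of these are families of like sequence, and whether a probe also reads a neighbour's transcript was not tested. The Dmwd, Dmpk and Six5 genes and the pair Cxcl16 and Zmynd15 encode unrelated proteins. This search of neighbours and the genes named from it were chosen after the values were seen.

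The siTfe3/Tfeb arrays, which share none with the siGFP pair, gave the same direction for most of these genes. Of 187 higher genes also measured on both siTfe3/Tfeb arrays, 185 lay above 0 with iron there, where 49.1% of all genes measured on all 4 arrays did. Of 34 lower genes 31 lay below 0. These counts leave out genes with a bound, or below background, in either pair. Among those left out, Ccl24 and Gsta3 lay below 0 in siTfe3/Tfeb cells as bounds, at -0.09 and -1.09. Gsta2 and Ppbp were below background on both siTfe3/Tfeb arrays. Myc and Ptpn14 lay above 0 there as bounds, at 0.52 and 4.27. Slc40a1 stood at 4.25 and 4.54 in siGFP and siTfe3/Tfeb cells, Hmox1 at 2.93 and 3.45, and Clec4n at 3.27 and 4.33. Several lower genes were nearer to 0 in siTfe3/Tfeb cells: Fpr2 at -2.53 and -0.76, Saa3 at -1.66 and -0.17, Hp at -1.65 and 0.05, while Ms4a4b stood at -1.52 and -1.44. Without iron each of these probes, that of Ms4a4b included, already read less on the siTfe3/Tfeb array than on the siGFP array. The signals were 178 against 822 for Fpr2, 827 against 1506 for Saa3, 493 against 749 for Hp and 203 against 362 for Ms4a4b.

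By list, over the genes measured in both pairs, vacuolar ATPase subunits had medians of 0.47 and 0.30 in siGFP and siTfe3/Tfeb cells, the lysosomal list 0.22 and 0.08, sterol genes 0.43 and 0.72, and CC chemokines 0.93 and 0.75. The interferon list had medians of -0.41 and -0.09, with 1 of 40 and 14 of 40 genes above 0, NF-kB genes -0.29 and 0.04 (3 and 13 of 19 above 0), and mitosis -0.18 and -0.43. With 1 array a group, whether the iron responses of the siRNA groups differ could not be tested.

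**Figure D5:**
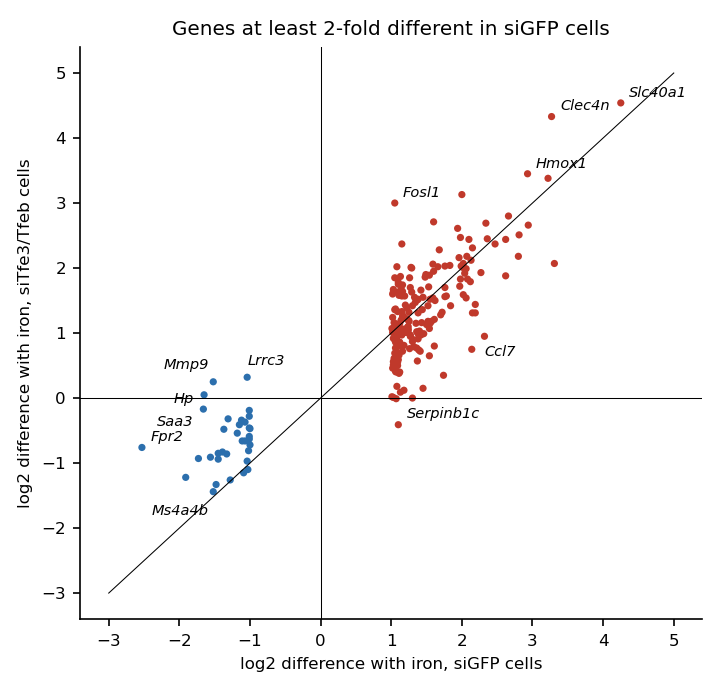
Each point is a gene at least 2-fold different with iron in siGFP cells and measured on all 4 arrays (221 genes), with its log2 difference with iron in siGFP cells on the x axis and in siTfe3/Tfeb cells on the y axis. The diagonal marks equal differences, and the genes were chosen by their values on the x axis alone. Slc40a1 and Hmox1 are high in both, and Fpr2, Saa3, Hp and Mmp9 lie nearer to 0 or above it in siTfe3/Tfeb cells.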

How the data were processed

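Total RNA carried Cy3 and was hybridised to SurePrint G3 mouse arrays. Agilent Feature Extraction 12.0.3.1 quantified the scans, per the submitters' processing notes. The intensity used for each spot is the scanner's processed signal, which had been background-subtracted and detrended within the array, per the file headers. The log2 values of the authors' series matrix were centred probe by probe on the median of the 4 arrays, as the values show. Their iron difference in siGFP cells ran in the scanner files' direction over 56602 probes (slope 1.000, Pearson r 1.000 across probes), and the column medians were -0.0042 and 0.022.

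Values are log2 processed signal minus the 75th percentile of non-control spots. Outlier spots were left out (3 probes had no other) and spots of a probe averaged. Probes were named through RefSeq (GRCm38.p6): 34596 of 56605 by accession, 9460 by symbol or synonym, 12549 not at all. A gene took the probe brightest over the 4 arrays. A gene below background on the dimmer array has a bound: its brighter value was set against the higher of its own dim signal and the array's detection floor (21.6 without and 22.3 with iron, the dimmest signal that passed the background flag). The spot SD came from probes with at least 5 spots. Probe coordinates are those of the array design (mm9), and their place in exons or UTRs was not analysed here.

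Named genes are the 40 largest higher and 25 largest lower differences, 10 bounds each way, Tfe3, Tfeb, Mitf and Tfec, 2-fold or the 6 largest members of each of 57 lists, and all genes of iron and haem handling. Members, lists and motifs were chosen with earlier results of these data known. Promoters to print were chosen after values were seen. The procedure was tested on simulated data. Alternatives, 9 in all, used limma 3.58.1 in R 4.3.3 for normexp (offset 50), and otherwise Python 3.11.15 with pandas 2.3.3. The number of arrays limits the precision. Nothing states whether the cultures were grown or harvested together. A few measured genes are not reported here by name.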

Additional observations from a re-analysis of the deposited data

Results flagged for a closer look

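The results below were picked out because iron went with opposite signs in siGFP and siTfe3/Tfeb cells, either for a gene 2-fold different in siGFP cells that passed its spot SD on the other pair of arrays, or for a named gene past 0.5 on both pairs. Genes with a bound on either pair were left out. Among them was Gsta3, at 1.48 in siGFP cells and, as a bound, -1.09 in siTfe3/Tfeb cells. With 1 array a group the difference between the siRNA groups was not tested.

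In siGFP cells Mmp9 (gelatinase B) read 518 without and 183 with iron (-1.52), and in siTfe3/Tfeb cells 39.9 and 44.3 (0.25). Lrrc3 stood at -1.04 (-0.54 with normexp) and 0.32, reading 77.9 and 38.4 in siGFP cells and 56.7 and 66.1 in siTfe3/Tfeb cells. Fos stood at -0.78 and 0.57, with 1106 and 652 against 263 and 364. Eda2r stood at -0.85 and 0.70, all of its 4 signals at 56.9 or less. Cth (cystathionine gamma-lyase, which makes cysteine) stood at 0.68 and -1.06, with 81.7 and 132 against 589 and 264. Serpinb1c stood at 1.10 and -0.41, at signals of 56.2 or less.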

How the results depend on the processing

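The 108 named genes that were 2-fold different and measured on both arrays kept their direction under quantile normalization, median centring, normexp background correction, the series matrix, both background filters, the mean of all probes and the brightest probe by the siGFP arrays. Of these genes 84 stayed 2-fold with normexp, 96 with the mean of probes and 107 or 108 under the others. The counts of higher and lower genes, 235 and 53, were 125 and 20 with normexp, 903 and 677 with no background filter and 713 and 345 at a 1.5-fold threshold, and lay between 201 and 241 and between 37 and 61 otherwise. The higher share of calls was 81.6%, or 57.2% with no background filter. Of 43 list medians at least 0.067 in size, the smallest spot SD, that of Toll-like receptors and Cd14 changed sign, to 0.01 with no background filter. Of 14 smaller medians 5 changed sign under some alternative, among them those of iron-sulfur cluster assembly, the integrated stress response and p53 targets, so their direction is not settled. Of the 57 list medians, 17 moved by over 1.5 times under some alternative, mostly normexp or no background filter. No paired analysis was possible because each group held 1 array.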
